A study of Arabidopsis thaliana with 12 samples.

Results

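The comparison set a red pulse against darkness in imbibed seeds of the pil5 mutant of Arabidopsis thaliana. It used the 3 arrays of pil5 seeds given red light and the 3 arrays of pil5 seeds kept dark, 6 of the 12 arrays in the series, chosen by genotype and last light as titled and paired by replicate number. pil5 red seeds, of the T-DNA insertion line Salk_072677, received far-red light and then red light, and were left in the dark for 12 h. pil5 dark seeds carried the same insertion, received far-red light alone and were left in the dark for the same time. Col-0 red and Col-0 dark seeds, with 3 arrays each, were the wild type under the same light regimes. All 12 samples therefore shared the far-red pulse and the dark incubation, and only the red groups had the red pulse. The fluence rates were 3.2 (far-red) and 13 (red) µmol m-2 s-1, for 5 min each. The mutant was 1 insertion line, and the number of seeds behind each RNA sample was not given in the labels.

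Phytochromes are photoreceptors that red light turns into an active form and far-red light turns back. PIL5, also named PIF1, is a bHLH transcription factor that represses germination of imbibed seeds in the dark, in part by keeping abscisic acid (ABA) levels and responses high and gibberellin (GA) levels and responses low. Active phytochrome leads to the breakdown of PIL5, so a red pulse removes the repressor in wild-type seeds, and a pil5 seed lacks it in darkness too. The comparison therefore asks which red response is left in seeds of the pil5 line.

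Signals are log2 values of probe sets, where a difference of 1 is a 2-fold change, and differences are red minus dark throughout. A probe set was called at an adjusted p under 0.05 in limma. Lower quartiles of the arrays lay between 4.20 and 4.36, and medians between 6.08 and 6.28. The titles call the replicates biological, and the tests measure the spread between them. No probe set was tied to PIL5, so the transcript of the mutated gene was not checked. Of 15 seed markers, 1 was tied to a probe set: the oleosin gene OLEO3, a coat protein of seed oil bodies, read 8.75 to 9.95 in the pil5 arrays. The root genes EXPA7 and EXPA18 read 4.09 to 4.81 in the pil5 arrays. Of the 4 leaf or green-tissue genes measured, RCA read 6.84 to 7.27, LHCB4.1 6.43 to 8.18, LHCB4.2 4.34 to 6.71 and LHCB4.3 7.39 to 7.84 there.

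The pil5 red array of number 3 stood apart from the other pil5 arrays. Across 22746 probe sets its correlation with its own dark array was 0.981, against 0.998 and 0.999 in the pairs of numbers 1 and 2. Of the other 11 arrays it correlated best with Col-0 dark of number 3 (r = 0.986). Its bioC spike-in, a bacterial RNA added as a control, read 7.45, and the other arrays read 8.77 to 9.21. Its bioB and bioD spike-ins, at 7.50 and 11.24, lay within the range of the other arrays. Numbers 1 and 2 are therefore given by themselves beside all 3 numbers. The arrays of number 3 in all 4 groups had the lowest estimated array weights, 0.176 to 0.405, and the other arrays had 1.01 to 4.20.

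In numbers 1 and 2, a red pulse changed little in pil5 seeds 12 h later. The differences had an SD over probe sets of 0.151 in number 1 and 0.135 in number 2, and the Col-0 pairs had 0.531, 0.519 and 0.433. In number 1, 1 probe set differed at least 2-fold between pil5 red and pil5 dark, and in number 2 there were 0. In the Col-0 pairs 1476, 1400 and 840 probe sets did so. The pil5 pair of number 3 had an SD of 0.473 and 958 such probe sets, 699 higher (3.07% of all) and 259 lower (1.14% of all) after red.

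**Figure D1:**
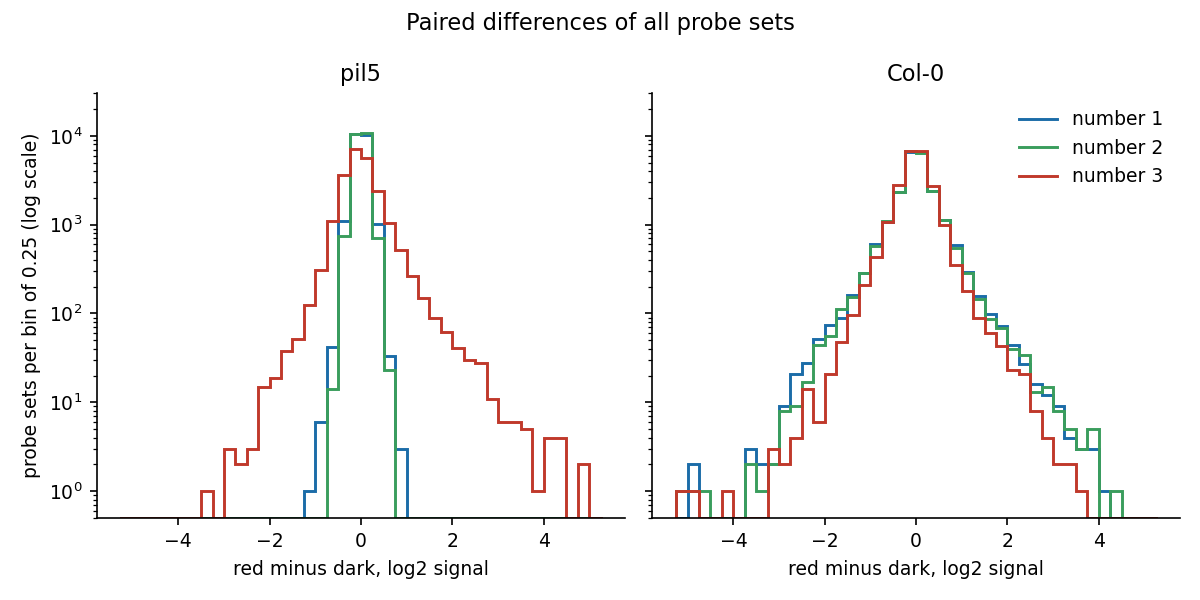
Differences red minus dark (x axis, log2 signal) of 22746 probe sets within each replicate number, in pil5 (left) and Col-0 (right), as the number of probe sets per bin on a log axis. The pil5 pairs of numbers 1 and 2 are narrow (SD 0.151 and 0.135), and the pil5 pair of number 3 (SD 0.473) is about as wide as the Col-0 pairs (SD 0.433 to 0.531).

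In limma over all 12 arrays, 0 of 22746 probe sets (0%) were called for red in pil5, and 267 (1.17%) had an unadjusted p under 0.05. With numbers 1 and 2 alone, 0 were called and 178 (0.783%) had an unadjusted p under 0.05. The median SE of a pil5 change was 0.134 with 3 pairs and 0.133 with numbers 1 and 2. Groups of 3 arrays did not overlap in 435 probe sets higher after red (1.91%) and 579 lower after red (2.55%). With numbers 1 and 2 alone they did not overlap in 3166 higher (13.9%) and 2995 lower (13.2%). In Col-0 the same fit called 1776 probe sets higher (7.81%) and 1667 lower (7.33%) after red.

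The probe set with the smallest p in pil5, with or without number 3 and with no block, was that of FHL (AT5G02200). In the fit of 3 pairs with a block for the replicate number, probe set 260300_at had the smallest p (0.000452, adjusted p = 0.920), and FHL had 0.00135. That probe set, tied to no gene, was higher after red in each pil5 number, by 0.72, 0.47 and 0.70, and by 3.86 in Col-0. With the block and numbers 1 and 2 alone, FHL again had the smallest p. FHL and its homologue FHY1 carry active phytochrome A into the nucleus. Its log2 signal was 5.14, 5.25 and 4.94 in pil5 red seeds, against 6.13, 6.0 and 5.33 in pil5 dark seeds. All 3 red arrays lay below all 3 dark arrays, and the red array was the lower one in each number, by 0.99, 0.75 and 0.39. The group means were 5.11 ± 0.16 in pil5 red and 5.82 ± 0.43 in pil5 dark (SD, n = 3 each). The change over 3 pairs was -0.71 (SE 0.18), with limma's unadjusted p of 0.0025 and adjusted p of 1.0.

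The FHL change in numbers 1 and 2 was -0.87 (SE 0.11, 95% interval -1.12 to -0.62), with unadjusted p = 2.13e-05 and adjusted p = 0.486 in limma. A block for the replicate number gave an adjusted p of 0.0932, and the alternatives run ranged from 0.0906 to 1.0. The change was therefore not called, although both pairs and number 3 ran the same way. In Col-0, FHL read 5.21, 5.04 and 5.06 after red, against 10.03, 9.88 and 10.10 in the dark, a change of -4.90 (SE 0.18, adjusted p = 8.50e-07 in limma). The 2 pil5 pairs thus showed 17.8% of the Col-0 change on the log2 scale. They started from a mean of 6.06 in the dark, where Col-0 started from 10.00, so the share depends on unlike starting levels. Whether a signal below the shared red level could be read was not tested. After red, the FHL levels of both genotypes overlapped, and in the dark pil5 seeds lay near the red level and far below Col-0. The difference between the pil5 change and the Col-0 change was 4.18 over all 12 arrays (adjusted p = 8.02e-05 in limma). FHL transcripts per seed were not counted: in bulk RNA, fewer cells with the transcript and less of it per cell cannot be told apart, here and in all that follows.

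**Figure D2:**
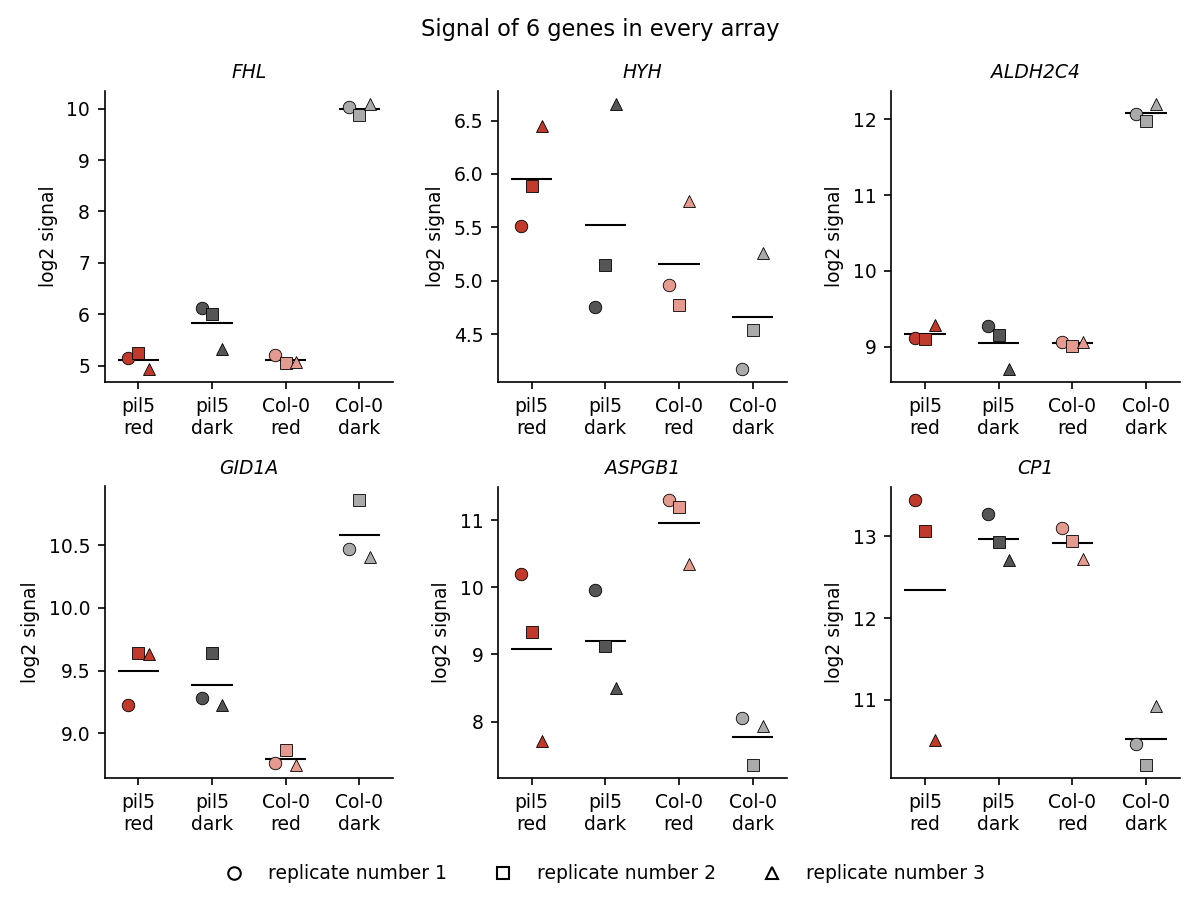
Log2 signal of 6 genes (y axes) in every array of pil5 red, pil5 dark, Col-0 red and Col-0 dark seeds. Symbols mark the replicate number and bars the mean of 3 arrays. FHL was lower after red in every pil5 pair, by 0.99, 0.75 and 0.39, on a scale on which Col-0 changed by -4.90. CP1 at 10.50 and ASPGB1 at 7.72 in pil5 red of number 3 lay far below the other pil5 red arrays.

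An unnamed probe set and a locus without a symbol were picked out after their values were seen, from the 5 with the smallest p in numbers 1 and 2. Probe set 245276_at, tied to no gene, read 7.83 and 7.77 in pil5 red and 8.18 and 8.24 in pil5 dark of numbers 1 and 2. Its number 3 read 7.63 in pil5 red and 7.43 in pil5 dark, the other direction. In Col-0 it read 7.12, 7.15 and 6.86 after red, against 10.77, 10.84 and 10.90 in the dark. Like FHL, it had a small difference in pil5 (-0.41, SE 0.11, adjusted p = 1.0 in limma) where Col-0 had one of -3.80.

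The locus AT4G16610 ran in opposite directions in the genotypes. It read 5.66, 5.48 and 5.40 in pil5 red, against 6.01, 5.85 and 5.74 in pil5 dark. In Col-0 it read 5.95, 5.87 and 5.93 after red, against 5.59, 5.51 and 5.51 in the dark. Within each genotype the 2 groups did not overlap. The pil5 change over 3 pairs was -0.35 (SE 0.09, adjusted p = 1.0), the Col-0 change was 0.38 (SE 0.09, adjusted p = 0.0216), and their difference was -0.73 (adjusted p = 0.0192), all in limma. The number 3 pair, which stood apart in most genes below, differed by -0.34 here, close to the other pairs.

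Probe sets that changed with red in Col-0 were read next in pil5. Their Col-0 changes use no pil5 array. The calls that chose them rest on a spread pooled over all 12 arrays, the pil5 arrays included, so the choice was not fully independent. Of the 1667 called lower in Col-0 (median change -0.73), the median differences in pil5 were -0.08 in number 1 and -0.03 in number 2. Of these, 750 (45%) were lower in both numbers, where 26.1% of all probe sets were, and 183 (11%) were higher in both. Of the 1776 called higher in Col-0 (median 0.70), the medians in pil5 were 0.04 and 0.05. Of these, 806 (45.4%) were higher in both numbers, where again 26.1% of all probe sets were, and 235 (13.2%) were lower in both. In limma without a block, an unadjusted p under 0.05 in numbers 1 and 2 was found for 13 of the 1667 (0.780%) and 12 of the 1776 (0.676%), next to 0.783% of all. These shares lie far below the 0.05 that chance alone would give, so this test cannot show whether single probe sets respond. With a block for the replicate number, 634 of all probe sets had such a p, and their share within the Col-0 sets was not counted.

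The median differences in pil5 were larger where the Col-0 change was larger, mainly among the lower ones. For the 50 probe sets with a Col-0 change below -2 (median -2.34), the pil5 medians were -0.25 in number 1 and -0.12 in number 2. For the 513 between -2 and -1 (median -1.27) they were -0.13 and -0.05. For the 1505 between -1 and -0.5 (median -0.67) they were -0.07 and -0.03. For the 93 with a Col-0 change above 2 (median 2.35) they were 0.13 and 0.04, and for the 471 between 1 and 2 (median 1.29) they were 0.05 and 0.07. In the bins below 0 the medians of number 1 were further from 0 than those of number 2.

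Arrays of 1 number share deviations across groups, so the choice was repeated across numbers. Of 732 probe sets at least 2-fold lower in Col-0 of number 1, 498 (68.0%) were lower in pil5 of number 2, with a median of -0.05, and 49.2% of all probe sets were. Of 689 at least 2-fold lower in Col-0 of number 2, 540 (78.4%) were lower in pil5 of number 1, with a median of -0.13, and 50.7% of all were. Of 744 at least 2-fold higher in Col-0 of number 1, 489 (65.7%) were higher in pil5 of number 2 (median 0.06). Of 711 at least 2-fold higher in Col-0 of number 2, 452 (63.6%) were higher in pil5 of number 1 (median 0.05). The small shift in the Col-0 direction was therefore also seen where no array and no number was shared.

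Over all 22746 probe sets the differences of the pil5 pairs were nearly unrelated to each other, with r = 0.08 between numbers 1 and 2 (rho = 0.06), r = -0.19 between 1 and 3 and r = -0.05 between 2 and 3. The Col-0 pairs had r between 0.82 and 0.92. These correlations are across probe sets, which are not independent. Within the probe sets called in Col-0, numbers 1 and 2 of pil5 had r = 0.12 for the 1667 lower and r = 0.17 for the 1776 higher ones.

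**Figure D3:**
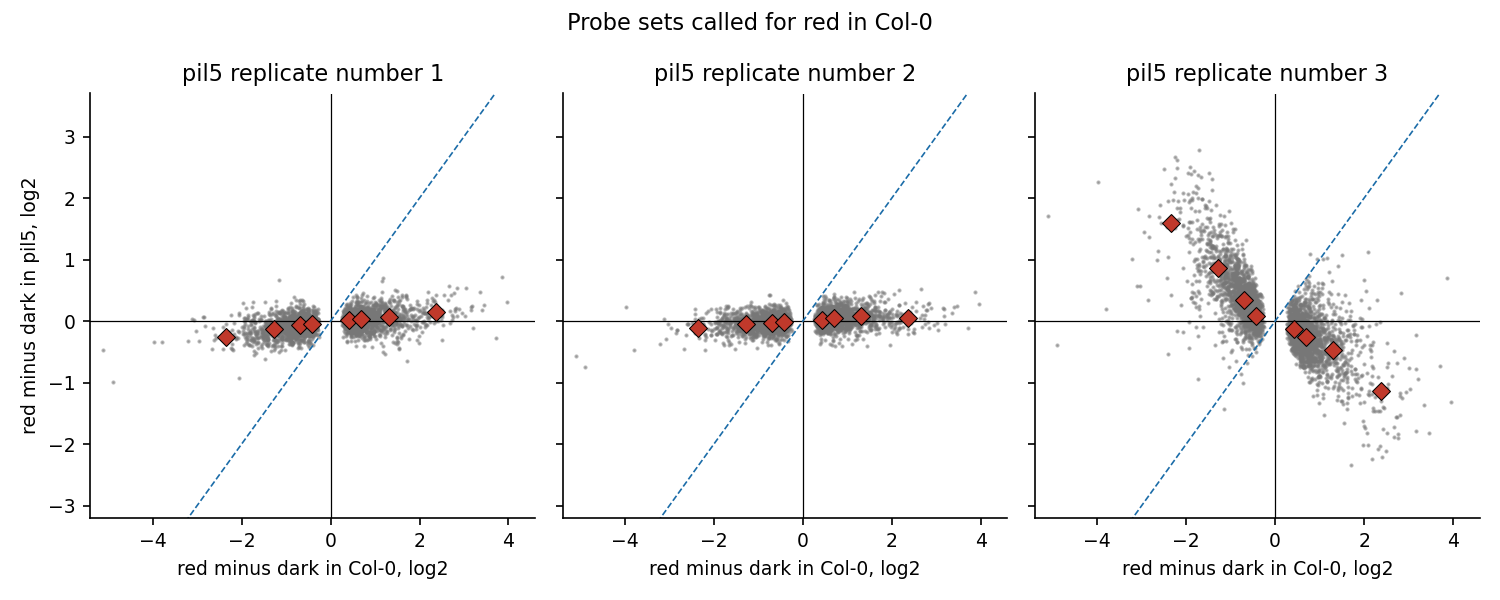
Change by red in Col-0 (x axis, log2, from limma) against the difference red minus dark in pil5 (y axis, log2) for the probe sets called in Col-0, 1 panel per pil5 replicate number. Diamonds mark the medians of bins of the Col-0 change among these called probe sets, and the dashed line marks equal changes. In numbers 1 and 2 the points lie along 0, and in number 3 they run the other way, with medians of 0.36 for probe sets lower in Col-0 and -0.26 for those higher in Col-0.

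The red effect was tested for a difference between pil5 and Col-0 as an interaction over all probe sets. It was called for 1443 probe sets (6.34%), and with pil5 numbers 1 and 2 alone for 1330 (5.85%). With numbers 1 and 2 and a block for the replicate number, it was called for 5102 (22.4%). The count depended strongly on single arrays and was 24 without the pil5 pair of number 2. In the fit with numbers 1 and 2 and no block it was called for 565 of the 1667 probe sets lower and 686 of the 1776 higher after red in Col-0, each with a difference opposite in sign to the Col-0 change. The block for the replicate number called it for 1461 (87.6%) and 1552 (87.4%) of them. The Col-0 arrays that chose these probe sets are part of that test, so these counts describe the sets and do not support them.

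Among the 10 genes with a symbol that fell furthest in Col-0, of those called without a block and with groups that did not overlap, 9 had a pil5 change below 0 with numbers 1 and 2, and 7 were lower in both numbers. Their pil5 changes ran from -0.87 to 0.02 (median -0.13), next to -4.90 to -1.79 in Col-0. ALDH2C4 (AT3G24503), an aldehyde dehydrogenase that makes ferulic and sinapic acids, read 9.12, 9.10 and 9.29 in pil5 red and 9.28, 9.15 and 8.71 in pil5 dark. The Col-0 red arrays read 9.02 to 9.07 and the Col-0 dark arrays 11.97 to 12.20. All 6 pil5 arrays were near the red level of Col-0. Its change in numbers 1 and 2 was -0.10 (95% interval -0.33 to 0.12), the narrowest interval of the 10 genes, against -3.03 in Col-0.

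GID1A (AT3G05120), a receptor of GA, read 9.23, 9.64 and 9.63 in pil5 red and 9.28, 9.64 and 9.23 in pil5 dark. The pil5 groups overlapped and lay between the Col-0 red arrays (8.75 to 8.87) and the Col-0 dark arrays (10.41 to 10.86). The change in numbers 1 and 2 was -0.03 (95% interval -0.46 to 0.40), and the Col-0 change was -1.79. XERICO (AT2G04240), a RING protein that raises ABA levels, read 8.60, 9.28 and 10.62 in pil5 red and 8.85, 9.16 and 9.09 in pil5 dark. Numbers 1 and 2 differed in direction, and pil5 red of number 3 came close to the Col-0 dark arrays (10.76 to 11.15). HIS1-3 (AT2G18050), a linker histone, read 7.23, 7.99 and 8.68 in pil5 red and 7.55, 8.10 and 7.23 in pil5 dark.

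IAA30 (AT3G62100), an Aux/IAA regulator of auxin response, read 4.33 to 4.51 in pil5 red and 4.34 to 4.72 in pil5 dark, near the lower quartile of the arrays. Its red arrays were lower in each number, by 0.11, 0.22 and 0.01. AGL67, a MADS-box gene of the embryo, was lower by 0.19 and 0.16 in numbers 1 and 2 and higher by 2.39 in number 3. For IAA30 the interval with numbers 1 and 2 was -0.65 to 0.33, and for AGL67 it was -0.94 to 0.59. The remaining 3 were DPE1, a plastid enzyme of starch breakdown, MGL, a methionine gamma-lyase, and the beta-glucosidase gene BGLU44. Their pil5 changes with numbers 1 and 2 were -0.08, 0.02 and -0.25. The red effect differed between pil5 and Col-0 for 7 of the 10 genes in limma with numbers 1 and 2, and the exceptions were AGL67, DPE1 and BGLU44. A block for the replicate number called it for all 10, with adjusted p of 0.000862 for AGL67, 0.000439 for DPE1 and 5.40e-05 for BGLU44. The Col-0 changes that chose the 10 genes are part of this test, so these counts are a description.

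Among the 10 genes that rose furthest in Col-0 by the same rule, 7 had a pil5 change above 0 with numbers 1 and 2, and 6 were higher in both numbers. Their pil5 changes ran from -0.14 to 0.42 (median 0.11), next to 2.01 to 3.17 in Col-0. The genes scpl48 (2.72), TUB5 (2.07) and XTH19 (2.02) had Col-0 changes of this size that were not called without a block, and are not among the 10. The asparaginase gene ASPGB1 (AT3G16150) read 10.20, 9.33 and 7.72 in pil5 red and 9.96, 9.13 and 8.50 in pil5 dark. The Col-0 red arrays read 11.30, 11.20 and 10.35, and the Col-0 dark arrays 8.05, 7.36 and 7.93. Both pil5 groups of numbers 1 and 2 lay between the Col-0 groups. The change with numbers 1 and 2 was 0.22 (95% interval -0.72 to 1.16), and the Col-0 change was 3.17.

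APL3 (AT4G39210), which encodes a subunit of the starch-synthesis enzyme ADP-glucose pyrophosphorylase, had the widest gap of the 10. It read 6.65 and 6.77 in pil5 red and 6.31 and 6.26 in pil5 dark of numbers 1 and 2, a change of 0.42 (95% interval -0.01 to 0.86) or 19.5% of the Col-0 change of 2.17. In number 3 it read 4.19 in pil5 red and 5.21 in pil5 dark. CP1, a cysteine proteinase, read 13.45, 13.07 and 10.50 in pil5 red and 13.28, 12.93 and 12.71 in pil5 dark. Its wide gap was that of number 3, and it was downward. All 10 genes were lower in pil5 red than in pil5 dark in number 3, by 0.24 to 2.21. The other 7 genes were scpl44, scpl25, EXPA8, NDB3, DRT100, XTH16 and CSLC04, with pil5 changes of -0.14 to 0.14 in numbers 1 and 2. The red effect differed between genotypes for 9 of the 10 with numbers 1 and 2, XTH16 (adjusted p = 0.0846, and 1.84e-05 with a block for the replicate number) being the exception. It was called for all 10 with that block, and for 4 of the 10 over all 12 arrays without it, XTH16 among them. Here too the Col-0 changes that chose the genes are part of the test, so the counts are a description.

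**Figure D4:**
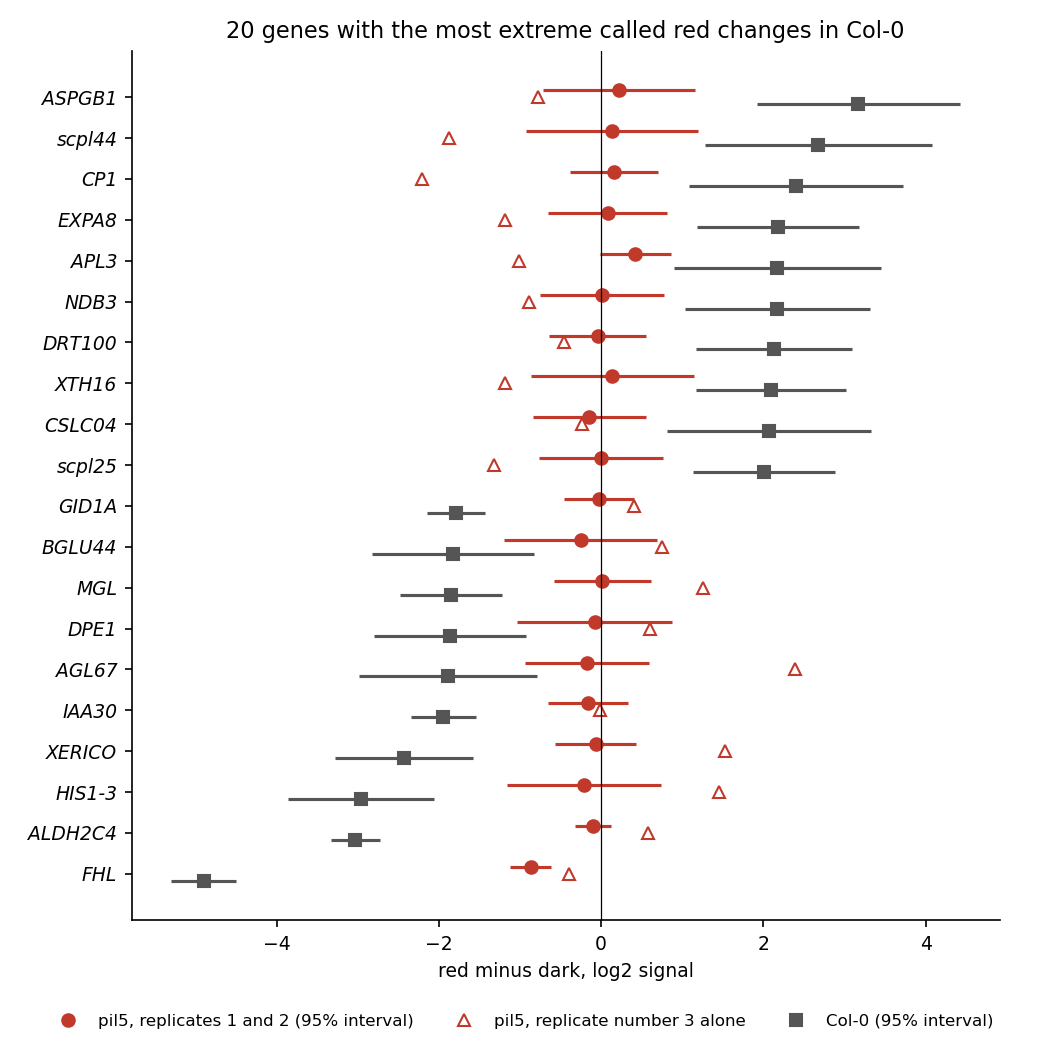
Change red minus dark (x axis, log2 signal) of the 10 genes with a symbol that rose and the 10 that fell furthest in Col-0, of those called without a block and with groups that did not overlap: pil5 with numbers 1 and 2 (circles, limma 95% interval), pil5 of number 3 alone (triangles) and Col-0 (squares, limma 95% interval). Of the 20 pil5 intervals, drawn from the fit without a block, that of FHL (-1.12 to -0.62) excludes 0. With a block for the replicate number, APL3 and BGLU44 also had an unadjusted p under 0.05 in limma (0.0413 and 0.0495). No pil5 change of numbers 1 and 2 exceeds 0.42 in the upward direction.

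Genes with the widest gaps in pil5 itself were chosen where both red arrays of numbers 1 and 2 lay beyond both dark arrays. Their gaps were used to choose them, so their changes are a description. HYH (AT3G17609), a bZIP factor related to HY5 that promotes light responses, was the highest. It read 5.51, 5.89 and 6.45 in pil5 red and 4.76, 5.14 and 6.66 in pil5 dark. It was higher after red by 0.75 and 0.74 in numbers 1 and 2 and lower by 0.21 in number 3. With numbers 1 and 2, limma gave an SE of 0.38 and an unadjusted p of 0.0825 without a block. A block for the replicate number gave an SE of 0.13 and an unadjusted p of 0.000171. HYH was called in neither fit. The Col-0 differences were 0.78, 0.24 and 0.49, all upward, and their mean of 0.50 was not called (adjusted p = 0.616 in limma). The difference between the genotypes with numbers 1 and 2 was 0.25 and was not called either (adjusted p = 0.874). The pil5 pairs of numbers 1 and 2 and all Col-0 pairs of HYH ran upward, and the pil5 pair of number 3 ran downward.

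The other upward genes had changes of 0.25 to 0.49. They were FANCM, a helicase of recombination, APL3, the U-box gene PUB15, the photosystem II gene PSBY, the MADS-box gene AGL24, the zinc transporter gene ZIP9, the zinc finger gene GIS, IQD24 and a probe set of mitochondrial nad1. Of these 10 genes, APL3, PSBY and GIS were called higher in Col-0, where 7.81% of all probe sets were. PSBY read 6.41 and 6.23 in pil5 red and 6.18 and 5.76 in pil5 dark of numbers 1 and 2, with a Col-0 change of 1.15. GIS read 6.41 and 6.23 in pil5 red and 6.07 and 5.94 in pil5 dark, with a Col-0 change of 1.08. In number 3 PSBY read 6.13 in pil5 red and 6.03 in pil5 dark, and GIS read 5.73 and 6.50, the other direction. PUB15, AGL24 and ZIP9 were also lower after red in number 3, with differences of -0.33, -0.37 and -0.30. FANCM, IQD24 and the nad1 probe set kept their direction there, with differences of 0.24, 0.17 and 1.39. In FANCM and nad1 all 3 red arrays lay above all 3 dark arrays, as in 1.91% of all probe sets. In GIS the red effect was smaller in pil5 than in Col-0 with numbers 1 and 2 (difference -0.77, adjusted p = 0.0173 in limma).

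Below FHL, the downward genes had changes of -0.45 to -0.32. AUR2, a mitotic Aurora kinase, read 5.21 and 5.26 in pil5 red and 5.70 and 5.68 in pil5 dark of numbers 1 and 2, and 7.01 against 5.42 in number 3. DRT101 read 4.48 and 4.55 in pil5 red and 4.91 and 4.98 in pil5 dark, and 5.23 against 4.73 in number 3. Both genes therefore turned round in number 3. The other 7 were CKS, SIS, AGL87, TRXF2 (a plastid thioredoxin), the plastid genes psbT and psbB of photosystem II, and the immune kinase gene BIK1. All 7 turned round in number 3 as well, with differences of 0.14 (psbB) to 2.29 (SIS). FHL alone of the 10 kept its direction there. Of the 10, FHL was the only gene called in Col-0 without a block, where 7.33% of all probe sets were called lower. SIS, CKS and BIK1 also fell in every Col-0 pair, with changes of -1.72, -0.83 and -0.69 (adjusted p = 0.105, 0.124 and 0.107 in limma). DRT101 and TRXF2 fell in every Col-0 pair by less, with changes of -0.15 and -0.22. Each of the 10 genes stands at an adjusted p of 1.0 in limma for red in pil5 with numbers 1 and 2, FHL apart.

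Light-signalling genes were measured by 4 probe sets of 37 entries. FHL and HYH are given above. SPT and ALC are bHLH factors, SPT a regulator of germination and ALC one of fruit opening. SPT read 7.62, 7.10 and 6.78 in pil5 red and 7.68, 7.20 and 7.09 in pil5 dark, lower in each number by at most 0.31. ALC read 5.95, 5.85 and 5.48 in pil5 red and 5.87, 5.65 and 5.49 in pil5 dark. In Col-0 both rose, by 1.08 (SPT) and 1.04 (ALC). With numbers 1 and 2, the SPT change of -0.08 had a 95% interval of -0.84 to 0.67 and the ALC change of 0.14 one of -0.22 to 0.50. The red effect on ALC differed between pil5 and Col-0 (difference -0.95 over all arrays, adjusted p = 0.0365 in limma).

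GA perception was measured by 6 of 11 entries, and 0 were called in pil5. The list median was 0.01 in number 1, -0.03 in number 2 and 0.27 in number 3, where the medians of all probe sets were -0.00, 0.00 and -0.04. The receptor gene GID1C read 5.84, 6.0 and 6.10 in pil5 red and 5.86, 6.07 and 5.75 in pil5 dark, and fell by 1.11 in Col-0. GID1B, the remaining receptor gene, was dim in both groups, at 4.58 to 5.6 in pil5 red and 4.43 to 5.18 in pil5 dark. The F-box gene SLY1, which acts in DELLA turnover, had a pil5 change of 0.00 with numbers 1 and 2, its homologue SLY2 had -0.03, and the O-fucosyltransferase gene SPY, a negative regulator of GA response, had 0.01. The 3 intervals reached no further from 0 than 0.47. No DELLA gene and no gene of the GA metabolism list was tied to a probe set by the supplied annotation.

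For the ABA lists, 1 of 14 metabolism entries (XERICO) and 1 of 18 signalling entries (EEL) were measured. EEL, a bZIP factor of late embryo genes, read 6.03, 6.59 and 8.29 in pil5 red and 6.57, 6.35 and 5.51 in pil5 dark. Its differences were -0.55, 0.24 and 2.78, with no common direction. The Col-0 arrays read 6.68 to 6.94 after red and 7.98 to 8.85 in the dark. Of 13 germination and embryo regulators 4 were measured (SPT, IAA30, AGL67 and HIS1-3). All 4 were lower in both numbers 1 and 2, with medians of -0.15 and -0.13, and 0 were called. In number 3, 2 of them were at least 2-fold higher, and the median was 0.72.

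Late embryogenesis abundant (LEA) proteins and dehydrins protect dry seeds, and 13 of 19 entries were measured. Their median differences in pil5 were -0.15 in number 1 and 0.08 in number 2, and 2 of 13 were lower and 2 higher in both. In Col-0 9 of 13 were called lower, where 7.33% of all probe sets were, with a list median of -1.0 over the 13. The gene with the symbol LEA (AT2G21490) read 11.67, 11.84 and 13.14 in pil5 red and 11.95, 11.93 and 11.31 in pil5 dark. LEA4-5 read 12.08, 12.29 and 13.36 in pil5 red and 12.22, 12.17 and 11.62 in pil5 dark. In both genes the pil5 arrays of numbers 1 and 2 lay close together, and number 3 had the highest red and the lowest dark array. Of the 13, 12 were higher after red in number 3, 9 of them at least 2-fold (3.07% of all probe sets were), with a list median of 1.46.

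Storage proteins and oleosins had 2 of 14 entries measured, OLEO3 and the cruciferin-family locus AT1G03890. Both were lower in numbers 1 and 2, by 0.04 to 0.25, and higher in number 3. OLEO3 read 9.31, 9.44 and 9.95 in pil5 red and 9.41, 9.49 and 8.75 in pil5 dark. The lipid mobilisation genes SDP1, AIM1 and ICL, a lipase, a beta-oxidation enzyme and isocitrate lyase, had pil5 changes of 0.14, -0.06 and 0.01 with numbers 1 and 2. ICL read 14.29 to 14.43 in pil5 red and 14.37 to 14.43 in pil5 dark, near the top of the array's scale.

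Among cell wall and tubulin genes 0 were called in pil5. Of 18 expansin probe sets, whose products loosen walls, 3 were higher and 9 lower in both numbers (medians -0.04 and -0.06), where 26.1% of all probe sets were higher and 26.1% lower. EXPA8, which rose by 2.18 in Col-0, read 11.81, 11.48 and 9.87 in pil5 red and 11.68, 11.44 and 11.06 in pil5 dark. Of 10 genes for xyloglucan endotransglucosylase/hydrolases, enzymes that cut and rejoin hemicellulose, 3 were higher and 2 lower in both (medians 0.02 and 0.02). Of 7 tubulin genes 5 were lower in both numbers and 0 higher, with medians of -0.14, -0.13 and -0.19. TUB5, a beta-tubulin, read 7.18, 6.12 and 4.85 in pil5 red and 7.43, 6.42 and 5.10 in pil5 dark, lower in each number by 0.25 to 0.31. Its level differed more between numbers than between red and dark, and its Col-0 change was 2.07, not called.

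The remaining lists had 0 genes called in pil5 as well. The 8 nuclear photosystem and light-harvesting genes had medians of -0.06 and 0.05 in numbers 1 and 2, and 0.23 in number 3. The 11 auxin-response genes had 0.11, -0.05 and -0.09, the 13 glutathione transferase genes 0.00, 0.08 and -0.22, and the 2 heat shock genes -0.01, -0.14 and 0.14. The 69 plastid-encoded probe sets had -0.03, -0.07 and -0.20. The lists of cytosolic ribosomal protein and cell cycle genes were not analysed here, since no symbol in the supplied annotation matched them.

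The pair of number 3 differed from the other pairs in gene content as well as in size. The highest differences with a symbol were those of mitochondrion-encoded genes, most of which encode subunits of the respiratory chain. Probe set 257338_s_at of nad5, a subunit of NADH dehydrogenase, read 12.54 in pil5 red of number 3 and 7.64 in its pil5 dark array. The same probe set read 6.62 and 7.14 in pil5 red and 6.89 and 7.36 in pil5 dark of numbers 1 and 2. The gap of 4.90 was thus confined, for this probe set, to number 3. nad6 had a gap of 4.94, matR 4.43, cox1 3.6 and cox2 3.16 in number 3.

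All 23 mitochondrion-encoded probe sets were higher in pil5 red of number 3, and 20 were at least 2-fold higher, where 3.07% of all probe sets were. Their median difference was 2.70, against 0.05 in number 1 and -0.02 in number 2. The median level of the 23 was 6.76, 7.0 and 9.91 in pil5 red and 6.89, 7.10 and 7.12 in pil5 dark. In Col-0 it was 6.74, 7.17 and 7.68 after red and 7.11, 7.42 and 8.08 in the dark. The pil5 red array of number 3 was the highest of the 12. The plastid-encoded probe sets were low in all arrays of number 3, with median levels of 7.08 in pil5 red, 7.36 in pil5 dark, 7.51 in Col-0 red and 7.33 in Col-0 dark, where numbers 1 and 2 had 8.59 to 9.29. The 25S rRNA control, which reads ribosomal RNA, was 11.21 in pil5 red of number 3 and 5.93 in pil5 dark of number 3, within a range of 5.65 to 12.90 over the other arrays. The part of these control and organelle values in the differences of number 3 was not tested.

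**Figure D5:**
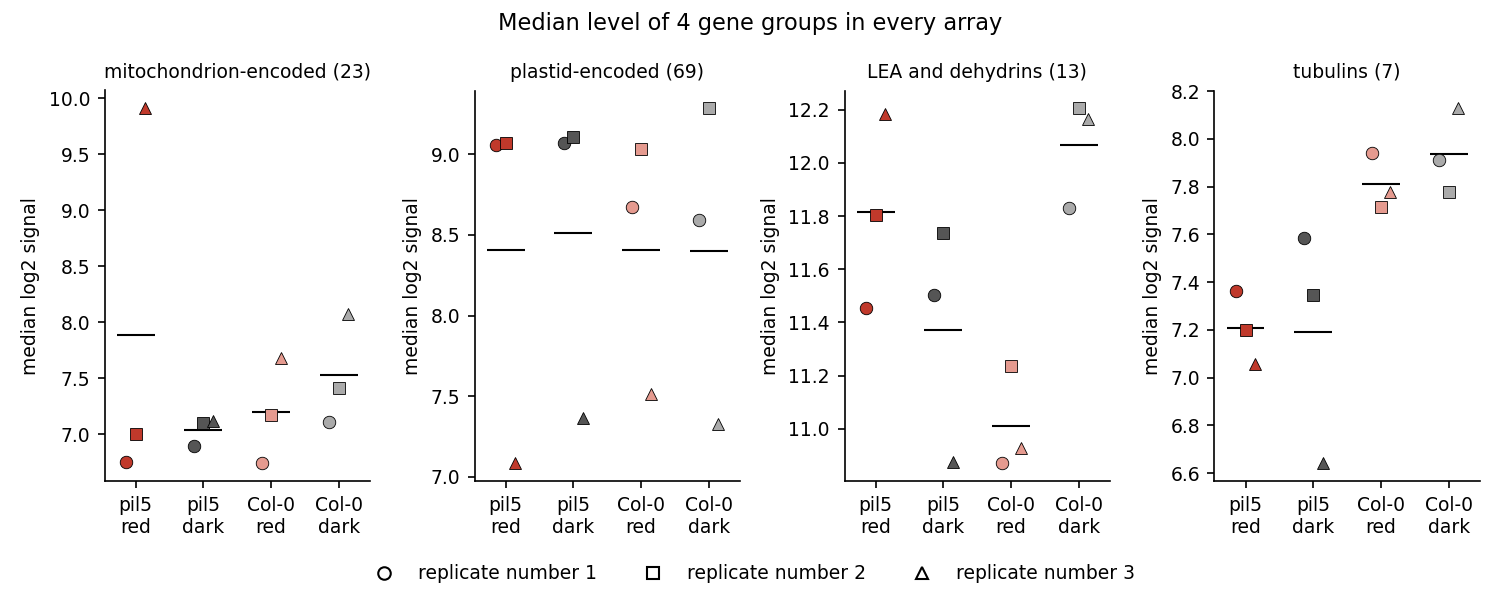
Median log2 signal (y axes) of the mitochondrion-encoded, plastid-encoded, LEA and dehydrin, and tubulin probe sets in every array of pil5 red, pil5 dark, Col-0 red and Col-0 dark seeds. Symbols mark the replicate number and bars the mean of 3 arrays. The pil5 red array of number 3 has the highest mitochondrial median (9.91), and all 4 arrays of number 3 have low plastid medians (7.08 to 7.51).

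Beyond the organelle genes, the differences of number 3 ran against the red response of Col-0. Of the 699 probe sets at least 2-fold higher in number 3, 224 (32.0%) were called lower after red in Col-0 and 6 higher, next to 7.33% and 7.81% of all probe sets. Of the 259 at least 2-fold lower, 89 (34.4%) were called higher in Col-0 (7.81% of all) and 2 lower (7.33% of all). The 1667 probe sets called lower in Col-0 had a median of 0.36 in number 3, and the 1776 called higher had -0.26. The median was 1.62 for the 50 with a Col-0 change below -2 and -1.14 for the 93 above 2.

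The 10 genes with a symbol and the lowest differences in number 3 were GH3.1, GSTU25, GSTU22, EXPA9, CP1, scpl44, WES1, CHR34, scpl48 and scpl20. GH3.1, which joins auxin to amino acids, read 8.48, 8.61 and 4.70 in pil5 red and 7.90, 8.49 and 7.60 in pil5 dark. EXPA9, an expansin, read 11.48, 10.34 and 6.25 in pil5 red and 11.59, 10.61 and 8.46 in pil5 dark. WES1, another GH3 gene, read 8.72, 8.56 and 5.06 in pil5 red and 8.82, 8.70 and 6.78 in pil5 dark. In these 3 genes the pil5 red array of number 3 was the lowest of the 12. The serine carboxypeptidase-like genes scpl44, scpl48 and scpl20 had gaps of -1.88, -1.63 and -1.55 in number 3. The dark array of number 3 also departed from its group: GSTU25 and GSTU22, glutathione transferases, read 8.31 and 10.46 there, above the other pil5 dark arrays (5.94 and 7.0 for GSTU25, 7.48 and 8.71 for GSTU22). Number 3 was the highest in both Col-0 groups as well. GSTU22 read 7.70 (red) and 7.78 (dark) there, against 5.19 to 6.03 in the other Col-0 arrays. GSTU25 read 5.02 and 5.30 there, against 4.09 to 4.72. In pil5 red of number 3, GSTU25 read 5.48 and GSTU22 8.04.

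In each of the 10 genes that fell furthest in Col-0, every Col-0 dark array read above all other arrays. In XERICO and AGL67 pil5 red of number 3 read 10.62 and 9.66, and the lowest Col-0 dark array 10.76 and 10.02. FHL, ALDH2C4 and IAA30 were picked out of the 10 after their values were seen. They read 4.94, 9.29 and 4.33 in pil5 red of number 3, and the other pil5 red arrays read 5.14 and 5.25 for FHL, 9.12 and 9.10 for ALDH2C4 and 4.45 and 4.51 for IAA30. The Col-0 dark arrays read at least 9.88 for FHL, 11.97 for ALDH2C4 and 6.18 for IAA30. In these 3 genes pil5 red of number 3 lay far below Col-0 dark, as did pil5 dark and Col-0 red. ALDH2C4 was higher in pil5 red than in pil5 dark of number 3, by 0.58, the direction opposite to its change in Col-0. In CP1 (10.50) pil5 red of number 3 lay within the Col-0 dark range of 10.20 to 10.92, and in the LEA list (median level 12.18) within that of 11.83 to 12.21.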

How the data were processed

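RNA of imbibed seeds was measured on 12 Affymetrix arrays in 4 groups of 3. The table as deposited by the authors holds log2 values of 22810 probe sets, from 2.87 to 14.75, and MAS5 5.0 and RMA are named, without their roles, per the submitters' processing notes. The values were used without further scaling or filter, after 64 control probe sets were set aside. Depth has no meaning for arrays, and their number limits the precision.

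Tests were two-sided and came from a group-means model in limma 3.58.1 under R 4.3.3, with plain eBayes. Benjamini-Hochberg adjustment ran over 22746 probe sets, and the threshold was 0.05. The fit of numbers 1 and 2 left out both pil5 arrays of number 3, and its spread was pooled over 10 arrays. The fit was also run on simulated data with independent noise, no effect of the replicate number and no array that stood apart. That run therefore did not check how the fit handles these. Figures were drawn in Python 3.11.15 with matplotlib 3.10.9. Of the probe sets, 13513 had 1 gene, 503 several and 8730 none in the supplied annotation, 13484 matched RefSeq (TAIR10.1) names, and 1580 had a symbol. Mitochondrial genes were found by symbol. No array genome build is given in the sources used here, so no positions are printed. All columns of the table were used.

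Named genes have 1 gene and a symbol. They are the 10 highest and 10 lowest changes in pil5 numbers 1 and 2 among probe sets whose arrays do not overlap, in Col-0 among called probe sets that do not overlap, and in pil5 number 3, then all measured members of the light, GA, ABA and germination lists and up to 4 of each other list. The groups, lists and rules were chosen with earlier results of these data known.

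Pairing was checked by the correlation of deviations from the group means. Same-numbered arrays of different groups had r from 0.17 to 0.71 (18 pairs), arrays of different numbers -0.68 to 0.41, and each pil5 red array had 0.40 to 0.61 with the pil5 dark array of its number. Arrays of the same number therefore shared deviations, although the ranges overlap. The labels do not say what a number stands for, and the main fit did not use the pairing. Alternatives were the replicate number as a block, array weights, quantile normalization, median centring, filters on the dimmest 25% and 50% of probe sets, trended robust eBayes, only the groups compared, a 2-fold minimum, and leaving out arrays or pairs.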

Additional observations from a re-analysis of the deposited data

Results flagged for a closer look

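The red effect in pil5 differed from that in Col-0 by the interaction test in limma for 1443 probe sets. The differences below are pil5 change minus Col-0 change over all 12 arrays. Among genes that fell in Col-0, the difference was 4.18 for FHL, 3.3 for HIS1-3, 3.15 for ALDH2C4, 2.89 for XERICO, 2.28 for MGL, 2.01 for LEA, 1.91 for GID1A, 1.83 for IAA30, 1.72 for the glutathione transferase gene GSTU16 and 1.20 for GID1C. It was 3.59 for probe set 245276_at, which is tied to no gene. Among genes that rose in Col-0, it was -3.28 for ASPGB1, -2.52 for EXPA8, -2.45 for scpl25, -2.39 for XTH16, -1.13 for GIS, -0.95 for ALC and -0.73 for AT4G16610. The pil5 red array of number 3, which stood apart, is part of these values. Several of these genes were chosen for their Col-0 change, which is also part of the test.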

How the results depend on the processing

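Under each alternative run, 0 probe sets were called for red in pil5, with all pairs and with numbers 1 and 2, also in the leave-one-out fits (12 and 10 of them). The named genes gave 3748 alternative values for red in pil5, 0 of them called. FHL was lower in pil5 red in 24 of 24 alternatives with all pairs (-0.96 to -0.56) and in 18 of 18 with numbers 1 and 2 (-0.94 to -0.80, adjusted p from 0.0906 with array weights to 1). With the replicate block the pil5 calls stayed at 0 (692 probe sets with an unadjusted p under 0.05, and 634 with numbers 1 and 2), and the counts were 6009 for red in Col-0, 3973 for the interaction (4086 also without pil5 red 3) and 5102 with numbers 1 and 2. Array weights gave 7549, 5242 and 4118, and a 2-fold minimum 914, 752 and 572. The interaction had 865 calls without the pil5 pair of number 1 and 24 without that of number 2.

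Leaving out 1 array, the counts ran from 1587 (Col-0 dark 2) to 4668 (pil5 red 3) for Col-0, from 68 (Col-0 red 1) to 2104 (pil5 red 1) for the interaction, and from 41 (pil5 dark 1) to 2346 (Col-0 dark 3) with numbers 1 and 2. Col-0 had 2009 calls without its dark array 1 and 1784 without its red array 1. The interaction had 197, 76, 635, 620, 325, 879, 599 and 898 without Col-0 dark 1, dark 2, red 2, red 3, pil5 dark 1, dark 2, dark 3 and red 2, and with numbers 1 and 2 it had 778, 448, 487, 782, 451, 494 and 44 without Col-0 dark 1, dark 2, red 1, red 2, pil5 dark 2, red 1 and red 2. The cause was not tested.

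The pil5 medians of probe sets lower and higher after red in Col-0 changed sign with all 3 pairs, to 0.0924 and -0.0628, since number 3 ran the other way. They were -0.0918 and 0.0669 for probe sets at least 2-fold changed in Col-0, the second was 0.0581 with median centring, and single numbers gave -0.0752 to -0.0321 and 0.0380 to 0.0503.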
